A study of Homo sapiens with 23 samples.

Results

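Potassium channel genes were followed through acute depletion of TRPS1, a repressive GATA-family transcription factor, in T47D, a luminal breast cancer cell line that expresses the estrogen receptor. The genes were the protein-coding rows whose symbol starts with KCN and whose mean raw count over the 23 libraries was 50 or more. This rule gave 36 genes out of 96 KCN genes in a table of 60605 rows. The assay was precision run-on sequencing (PRO-seq): engaged polymerases extend their transcripts in permeabilized cells, and a count reflects polymerases on the gene rather than stored mRNA. All libraries came from 1 clone in which the endogenous TRPS1 protein carries a degron tag, and no untagged cells entered these comparisons. The control group received DMSO at 0.1% for 24 h (n = 4), and the other groups received dTAG-13 and dTAG-V-1 at 50 nM each, together called dTAG, for 0.5, 1, 2 or 4 h (n = 4 each) or 24 h (n = 3).

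Potassium channels are tetrameric or dimeric membrane pores that let potassium leave the cell down its gradient, which sets the resting voltage and with it calcium entry and cell volume. Voltage-gated channels open when the membrane depolarizes, calcium-activated channels open when internal calcium rises, inward rectifiers pass current best at negative voltages, and two-pore-domain channels leak at rest. Auxiliary subunits change the gating, trafficking or stability of these pores without conducting. In breast cancer lines several of these channels are studied for their link to membrane voltage and proliferation. Of the 36 genes, 12 encoded voltage-gated pore subunits, 2 calcium-activated pore subunits, 6 inward rectifiers, 4 two-pore-domain channels, and 12 auxiliary subunits or regulators.

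KCNMA1 and KCNK5 were already known from these data as the members with the clearest response, so their changes are given as values without a test, and calls are counted over the 34 other genes. The rule also used the counts themselves as a floor. Just inside it were KCNMB2 with a mean of 55.6 counts and KCNIP1 with 53.3, and just outside was KCNN1 with 46.7. All 36 genes passed the low-count filter of the model, as did 32 of the 60 KCN genes below the floor.

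RefSeq promoter windows, taken as the 250 bases upstream of an annotated start (GRCh38.p14), were found for 28 of the 36 genes, 48 windows in all. Shown is 1 window of each lead gene, at the 5′ end for KCNK5 and before an internal start for KCNMA1. The 5′ window of KCNMA1 runs into an annotated first exon and is not printed. The KCNK5 window lies just upstream of the annotated 5′ end of the gene, on the minus strand of chr6:39229476-39229725, and is 77.2% G or C, with 31 CpG dinucleotides. The KCNMA1 window precedes an internal start on the minus strand of chr10:77350762-77351011, 287.6 kb inside the gene, where it overlaps the opposite-strand RNA gene KCNMA1-AS3, and it is 53.6% G or C with 1 CpG. The sequences run 5′ to 3′ toward the start, and capitals mark GGGCGG, known as the GC box, AGATAA, a motif bound by the GATA family to which TRPS1 belongs, and AGGTCA, a nuclear receptor half-site of the kind found in estrogen response elements, each searched on both strands.
KCNK5 promoter: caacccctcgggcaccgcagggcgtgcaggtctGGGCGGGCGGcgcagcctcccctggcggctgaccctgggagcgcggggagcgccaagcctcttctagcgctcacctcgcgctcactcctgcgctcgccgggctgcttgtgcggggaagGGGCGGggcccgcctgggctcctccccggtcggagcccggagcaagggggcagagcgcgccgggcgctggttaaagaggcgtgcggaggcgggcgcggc
KCNMA1 internal promoter: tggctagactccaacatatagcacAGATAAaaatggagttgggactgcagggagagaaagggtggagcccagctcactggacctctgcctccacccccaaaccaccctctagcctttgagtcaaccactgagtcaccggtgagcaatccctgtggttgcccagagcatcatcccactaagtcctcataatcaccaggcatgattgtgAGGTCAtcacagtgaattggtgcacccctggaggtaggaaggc
The KCNK5 window held GGGCGG at 217, 213 and 99 bases before the start, the first pair overlapping, and neither other motif. The internal KCNMA1 window held AGATAA 226 bases and AGGTCA 43 bases before its start and no GGGCGG. The other KCNMA1 window, near the 5′ end of the gene, was 85.6% G or C. Like the KCNK5 window it held GGGCGG but neither other motif. AGATAA lay in 5 of the 48 windows (10.4%) against 9.2% of all 35116 RefSeq windows, AGGTCA in 4 (8.3%) against 12.1%, and GGGCGG in 23 (47.9%) against 42.6%. Windows of 1 gene are not independent: these windows came from 3, 4 and 21 genes, and the KCNAB1 windows with AGATAA overlap each other. The GATA motif and the half-site occurred together in 1.3% of all windows and, among these genes, in the internal KCNMA1 window alone (1 of 48, or 2.08%). A match is a description of the letters and not a binding site, and the gene counts do not separate polymerases that started at one KCNMA1 start from those of another.

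The libraries held between 4408544 and 17571616 counts (median 9768427). The library of replicate 1 at 4 h stood apart, with the lowest total and the highest share of mitochondrial counts (6.5% against 1.73% to 4.24% in the other 22). Leaving it out turned the sign of the 4 h fold change against DMSO for 3 of the 34 genes described (KCNJ11, KCNIP2 and KCNIP1) and of the difference between 0.5 and 4 h for 9, none of these past the FDR of 0.1. The 8 luminal markers ESR1, PGR, GATA3, FOXA1, XBP1, KRT8, KRT18 and KRT19 summed to 6838.3 to 7641.3 CPM (read counts scaled to a common library size after TMM) in DMSO, 6528.5 to 7082.0 at 0.5 h, 6416.7 to 6820.5 at 1 h, 6123.6 to 7000.1 at 2 h, 6402.6 to 6965.1 at 4 h and 6289.4 to 6971.4 at 24 h. GATA3 fell at 0.5, 1, 2 and 4 h (log2 fold changes -0.22, -0.22, -0.16 and -0.13, edgeR adjusted p = 0.00112, 0.000717, 0.0131 and 0.0551). With the replicate number as a block, explained below, PGR also fell at 1, 2, 4 and 24 h and KRT19 at 0.5, 1, 2 and 24 h. Their log2 fold changes at 24 h were then -0.21 and -0.21 (edgeR adjusted p = 0.00204 and 0.000917). XBP1 and KRT8 fell with the block at 1 h only. KRT5 and KRT14, defining basal keratins, stayed under 0.48 CPM. The 4 basal or mesenchymal markers summed to 20.7 to 21.8 CPM in DMSO, 24.5 to 27.7 at 0.5 h, 25.1 to 34.8 at 1 h, 23.9 to 28.9 at 2 h, 26.9 to 29.7 at 4 h and 28.1 to 31.2 at 24 h, most of it TP63. TP63 rose at 1, 2, 4 and 24 h (log2 fold changes 0.49, 0.37, 0.44 and 0.49, edgeR adjusted p = 0.00504, 0.0523, 0.0104 and 0.00722), and with the block at 0.5 h too. The part of these marker shifts in the changes below was not tested. Markers of leukocytes, endothelium and fibroblasts (4 genes) summed to between 14.3 and 20.6 CPM, mostly COL1A1. TRPS1 is removed as protein, so its RNA does not check the depletion. Its nascent transcription was 7997.2 to 10157.3 CPM in DMSO and 9756.6 to 11979.0 CPM at 24 h.

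Before depletion, the genes described here lay between 2.28 and 0.0089 CPM per kb of gene span. KCNRG, a regulator that interferes with the assembly of voltage-gated channels, stood at 2.28 ± 0.21 CPM per kb (SD, n = 4 for all levels in DMSO) and KCNK6, a leak channel, at 2.09 ± 0.14, a difference smaller than their SD. KCNK2 (TREK-1), a leak channel opened by stretch and lipids, came next at 1.51 ± 0.13, then the inward rectifier KCNJ14 at 1.36 ± 0.11 and the auxiliary subunit KCNMB3 at 1.23 ± 0.04. KCNK5 (TASK-2), a leak channel sensitive to extracellular pH, stood at 0.874 ± 0.10 CPM per kb. KCNH1 (EAG1), a voltage-gated channel studied in tumours, at 0.774 ± 0.042 and the inward rectifier KCNJ10 (Kir4.1) at 0.736 ± 0.056 differed from each other by less than their SD.

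**Figure D1:**
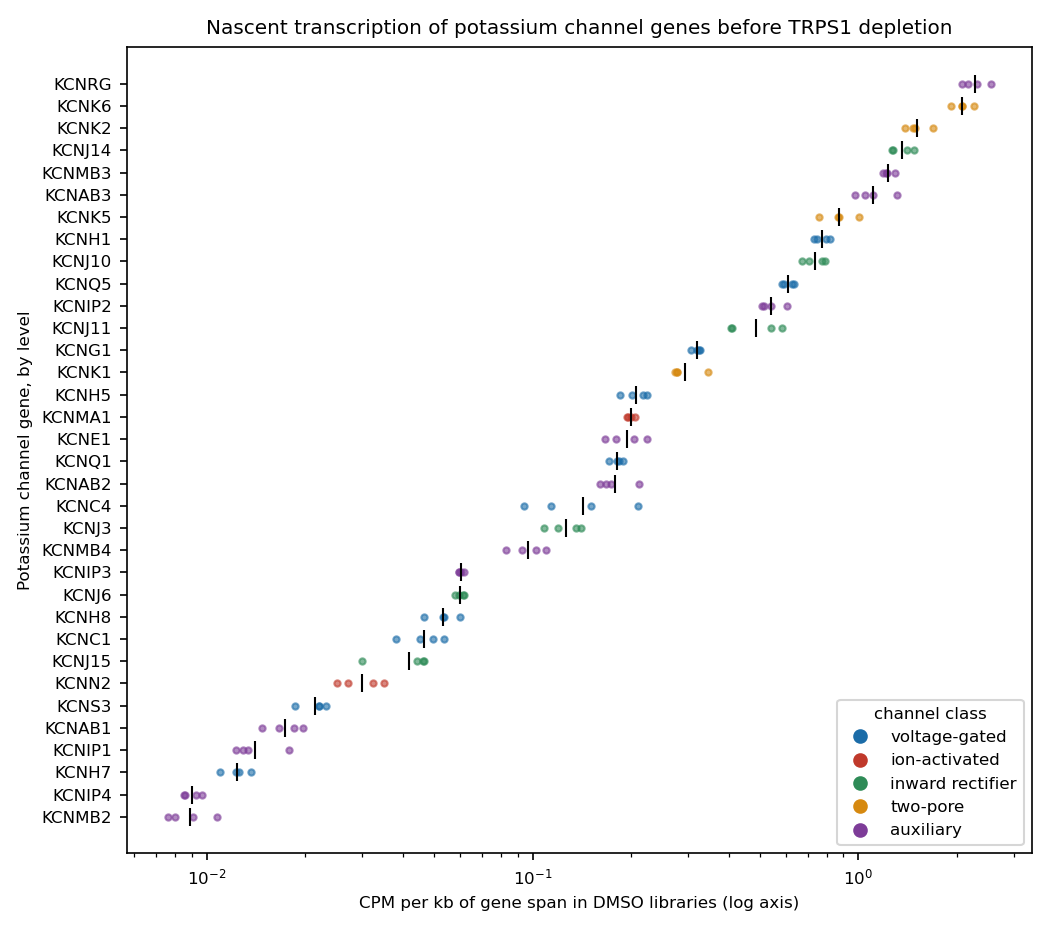
Nascent transcription of 34 of the 36 potassium channel genes in DMSO, as CPM per kb of gene span on a log axis, ordered by level and coloured by channel class. Points are the 4 libraries and ticks their means, from KCNRG at 2.28 to KCNMB2 at 0.0089 CPM per kb.

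KCNMA1 (BK), the pore of the large-conductance channel opened by calcium and voltage, was in the middle of this order at 0.200 ± 0.005 CPM per kb. Neighbours KCNH5 (0.208 ± 0.017) and KCNE1 (0.194 ± 0.026) were within their SD of it. KCNN2, a small-conductance calcium-activated channel, was the other member of its class at 0.0300 ± 0.0046 CPM per kb. The lowest 2 genes were auxiliary subunits with very long spans, KCNIP4 (0.0090 ± 0.0006 over 1220.2 kb) and KCNMB2 (0.0089 ± 0.0014 over 571.5 kb), and these did not differ beyond their SD. From KCNH5 at rank 16 to KCNJ3 at rank 22, no neighbours differed beyond their SD. Of the 36 genes, 19 overlap another annotated gene on their own strand, whose polymerases may add to their counts. The overlapping gene had the higher mean count for KCNE1 with ENSG00000288711 (1004.3 against 139.8), KCNRG with TRIM13 (725.5 against 139.8), KCNJ15 with DSCR8 (127.7 against 71.6) and KCNJ14 with GRWD1 (187.7 against 163.0). It had nearly as high a count for KCNJ10 with PIGM (468.5 against 552.6), KCNAB3 with ENSG00000262730 (82.7 against 94.7), KCNAB1 with ENSG00000287916 (82.8 against 96.8) and KCNJ6 with DSCR4 (260.7 against 323.4).

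Upon TRPS1 depletion KCNMA1 transcription was first higher and then lower than in DMSO. The DMSO libraries gave 154.2, 151.3, 159.0 and 150.2 CPM in replicates 1 to 4. At 0.5 h the values were 170.6, 167.5, 172.2 and 170.9 CPM, all above the highest control. At 1 h they were 166.7, 160.6, 167.1 and 171.2 CPM, still above every control. At 2 h KCNMA1 was back among the controls with 151.0, 156.2, 148.5 and 149.6 CPM. At 4 h the values of 133.6, 121.5, 125.0 and 116.6 CPM lay below every control, and so did those of replicates 2 to 4 at 24 h, 132.9, 122.3 and 128.7 CPM. The lowest early value (160.6 CPM) and the highest late value (133.6 CPM) did not overlap.

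As log2 fold changes against DMSO, KCNMA1 stood at 0.15 (SE 0.04) at 0.5 h, 0.11 (SE 0.04) at 1 h, -0.02 (SE 0.04) at 2 h, -0.31 (SE 0.04) at 4 h and -0.26 (SE 0.04) at 24 h. Every same-numbered pair was higher at 0.5 and 1 h, and every pair was lower at 4 and 24 h. Between 0.5 and 4 h the log2 difference was -0.46 (SE 0.04), or 0.728 of the 0.5 h level, and from 4 to 24 h it was 0.05 (SE 0.04), with overlapping groups. Without the 4 h library of replicate 1 the 4 h value was -0.35 and the difference from 0.5 h -0.49. KCNMA1 had the smallest spread between replicates of all 36 genes, 0.049 on the log2 scale. The gene spans chr10:76869601-77638369 on the minus strand (hg38), and its largest same-strand overlap, the pseudogene COX6CP15, had a mean of 0.3 counts. Counts are given per gene, with a span of 768.8 kb here against 40.5 kb for KCNK5. Where along the gene the counts changed, and how span bears on the timing, was not tested.

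The other calcium-activated gene, KCNN2, did not pass the test at any time, with log2 fold changes of 0.22 at 1 h and -0.06 at 24 h as its extremes against DMSO. Its DMSO libraries gave 11.96, 11.1, 14.3 and 15.4 CPM and its 4 h libraries 15.7, 13.5, 14.2 and 14.4 CPM, so the groups overlapped.

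KCNK5 was lower than in DMSO from 1 h on and lowest at 24 h. The DMSO values were 40.6, 35.1, 35.2 and 30.7 CPM, a wider spread than for KCNMA1. At 0.5 h they were 29.8, 31.7, 33.8 and 30.0 CPM, overlapping the controls although each pair was lower. At 1 h KCNK5 gave 27.4, 26.4, 27.9 and 25.9 CPM, after 2 h it gave 29.9, 26.3, 25.7 and 24.2 CPM, and after 4 h 27.9, 25.8, 23.4 and 26.5 CPM. These 3 groups all lay below the lowest control and overlapped one another. At 24 h the values of 23.6, 21.7 and 21.8 CPM overlapped the 4 h range only at its lower end.

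**Figure D2:**
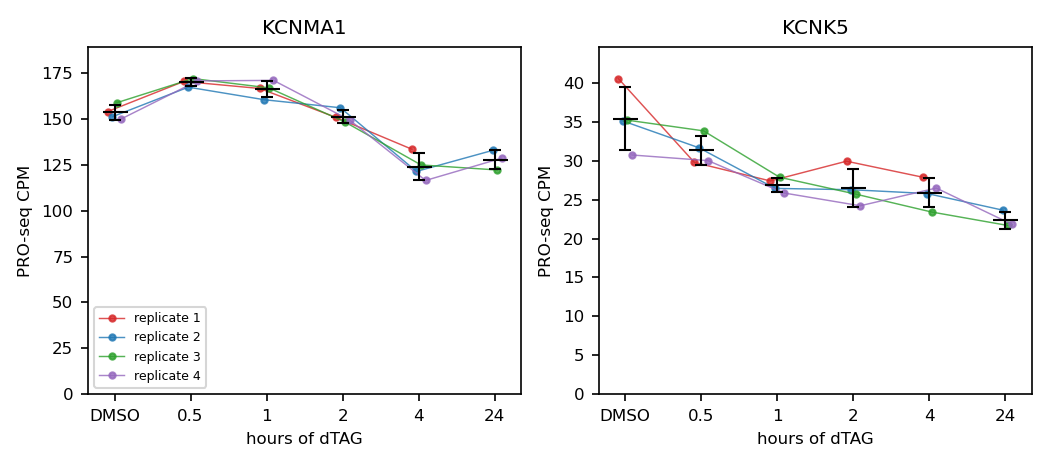
PRO-seq CPM of KCNMA1 and KCNK5 in every library by hours of dTAG, with lines joining libraries of one replicate number, and black ticks and bars giving the mean and SD of each group (n = 4, or 3 at 24 h). KCNMA1 lies above DMSO at 0.5 and 1 h and below it at 4 and 24 h, whereas KCNK5 lies below DMSO from 1 h on.

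The log2 fold change of KCNK5 against DMSO was -0.17 (SE 0.08) at 0.5 h, where it was -0.08 without replicate 1, -0.39 (SE 0.08) at 1 h, -0.42 (SE 0.08) at 2 h, -0.46 (SE 0.08) at 4 h and -0.66 (SE 0.08) at 24 h. The last value is 0.632 of the control level. From 0.5 to 4 h the log2 difference was -0.28 (SE 0.08), and from 4 to 24 h -0.21 (SE 0.08). KCNK5 spans chr6:39188971-39229475 on the minus strand and overlaps no other annotated gene on either strand.

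Among the other two-pore-domain channels, KCNK2 had 339.5, 322.2, 392.6 and 345.7 CPM in DMSO, and its 1 h libraries had 355.8, 400.9, 409.3 and 401.2 CPM. The groups overlapped, but every pair was higher at 1 h. The log2 fold change of 0.16 (SE 0.08) did not pass the FDR of 0.1 (edgeR adjusted p = 0.547), and it rose with the replicate number as a block (log2 fold change 0.17, edgeR adjusted p = 0.0494). The block is considered because replicates were treated and collected at different times of 1 day, so libraries of the same number were taken to share a harvest. KCNK6 and KCNK1, both leak channels, passed at no time in either fit, with all 5 log2 fold changes against DMSO between -0.15 and -0.01.

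KCNQ1 (Kv7.1), a voltage-gated channel with a role in epithelial transport, was the only one of the 34 other genes to pass the test without the block. Its DMSO libraries gave 74.3, 69.5, 76.4 and 73.5 CPM, and its 4 h libraries 69.3, 67.8, 69.4 and 73.4 CPM. After 24 h of dTAG the values were 81.9, 87.0 and 92.5 CPM in replicates 2 to 4, above every library of both other groups. KCNQ1 rose at 24 h by 0.25 on the log2 scale (SE 0.06, 3 of 3 pairs, edgeR adjusted p = 0.0406), and by 0.32 (SE 0.06) against 4 h (3 of 3 pairs, edgeR adjusted p = 0.0132). With the block, these were 0.24 (adjusted p = 0.000558) and 0.31 (adjusted p = 7.64e-05), and KCNQ1 also fell at 2 h (-0.13, 4 of 4 pairs, edgeR adjusted p = 0.0821, against 0.537 without the block) and passed over the 0.5 to 4 h time course (0.0746). Without the block the 24 h call was lost with total counts only, without the low-count filter, with the 2 groups fitted alone, and without replicate 3 or replicate 4 (edgeR adjusted p from 0.126 to 0.675). The call against 4 h was lost with the 2 groups fitted alone and without replicate 3 or replicate 4 (edgeR adjusted p = 0.323, 0.507 and 0.269). KCNQ1 spans chr11:2444654-2849105 on the plus strand, and the antisense transcript KCNQ1OT1 inside it had a mean of 12 counts against 775.6 for KCNQ1. Genes nested on the opposite strand of a transcribed host had a median density of 0.0546 of the host's, against 0.894 on the same strand. Under 0.1 of the host's density were 60.4% of the opposite-strand genes and 6.6% of the same-strand genes. Opposite-strand reads were thus kept apart for most nested genes, which is not shown for every gene. Of the 36 genes, 26 overlap an opposite-strand gene, some less transcribed, as for KCNQ1, and some more. KCNMB2-AS1 had a mean of 2578.2 counts against 55.6 for KCNMB2, and DLEU2 3669.6 against 139.8 for KCNRG. Leakage of opposite-strand reads into such low-count genes was not tested.

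KCNH1 had a higher mean than DMSO at 0.5 and 1 h and a lower one at 2, 4 and 24 h. The mean was 353.8 CPM in DMSO, 331.1 CPM at 2 h and 334.8 CPM at 4 h. Its DMSO libraries gave 374.9, 333.9, 364.2 and 342.4 CPM, 0.5 h libraries 404.6, 356.4, 380.6 and 386.9 CPM, and 4 h libraries 371.3, 318.4, 323.1 and 326.4 CPM. The 24 h libraries, with 305.6, 310.1 and 324.1 CPM, lay below every control, whereas the earlier groups overlapped DMSO. With edgeR on all libraries none of these contrasts passed without the block, with log2 fold changes of 0.11 at 0.5 h, -0.18 at 24 h and -0.19 between 0.5 and 4 h (edgeR adjusted p = 0.705, 0.388 and 0.188). Between 0.5 and 4 h KCNH1 fell without the block by DESeq2 (adjusted p = 0.0291) and by edgeR without the 4 h library of replicate 1 (-0.25, SE 0.06, adjusted p = 0.0786). With the block KCNH1 rose at 0.5 h (0.11, SE 0.03, edgeR adjusted p = 0.0966), fell at 24 h (-0.14, SE 0.04, 0.0365), fell between 0.5 and 4 h (-0.19, SE 0.03, 0.0017) and passed over the time course (0.00311). These changes had the same direction in 4 of 4, 3 of 3 and 4 of 4 pairs. A same-strand gene without a symbol, ENSG00000283952, had a mean of 609.0 counts against 3584.2 for KCNH1, so part of the KCNH1 count may be shared.

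KCNQ5 (Kv7.5), an M-type voltage-gated channel, had 365.4, 335.9, 361.1 and 341.6 CPM in DMSO and 376.9, 414.5 and 438.1 CPM after 24 h. All 24 h libraries lay above the controls. The log2 fold change was 0.22 (SE 0.11, edgeR adjusted p = 0.681) without the block, and KCNQ5 rose with it (0.27, SE 0.07, 3 of 3 pairs, adjusted p = 0.0419). Its libraries of replicate 1 at 0.5 and 4 h, 446.9 and 485.0 CPM, were the highest of all 23. KCNH5 (EAG2), the closest relative of KCNH1, fell outside the rule for named genes and is described after its values were seen. It had 71.7, 74.0, 87.8 and 85.7 CPM after 0.5 h, then 76.5, 89.5, 99.6 and 97.7 CPM at 4 h, higher in 4 of 4 pairs, and rose between these times with the block only (0.19, edgeR adjusted p = 0.0123, against 0.637). KCNH1 fell over the same interval with the block, so the 2 relatives moved in opposite directions there.

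KCNC4, like KCNJ11, KCNIP3 and KCNMB4 chosen after its values were seen, had lower means than DMSO at every time (-0.42, -0.35, -0.48, -0.25 and -0.48) and passed at none, and its 4 DMSO libraries spread from 6.9 to 15.4 CPM. Its 4 h value rested on replicate 1 (14.1 CPM against 6.8 to 7.7 in the others) and was -0.48 (SE 0.20) without it. The voltage-gated genes KCNG1, KCNH7, KCNH8, KCNC1 and KCNS3 passed in no contrast in either fit.

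**Figure D3:**
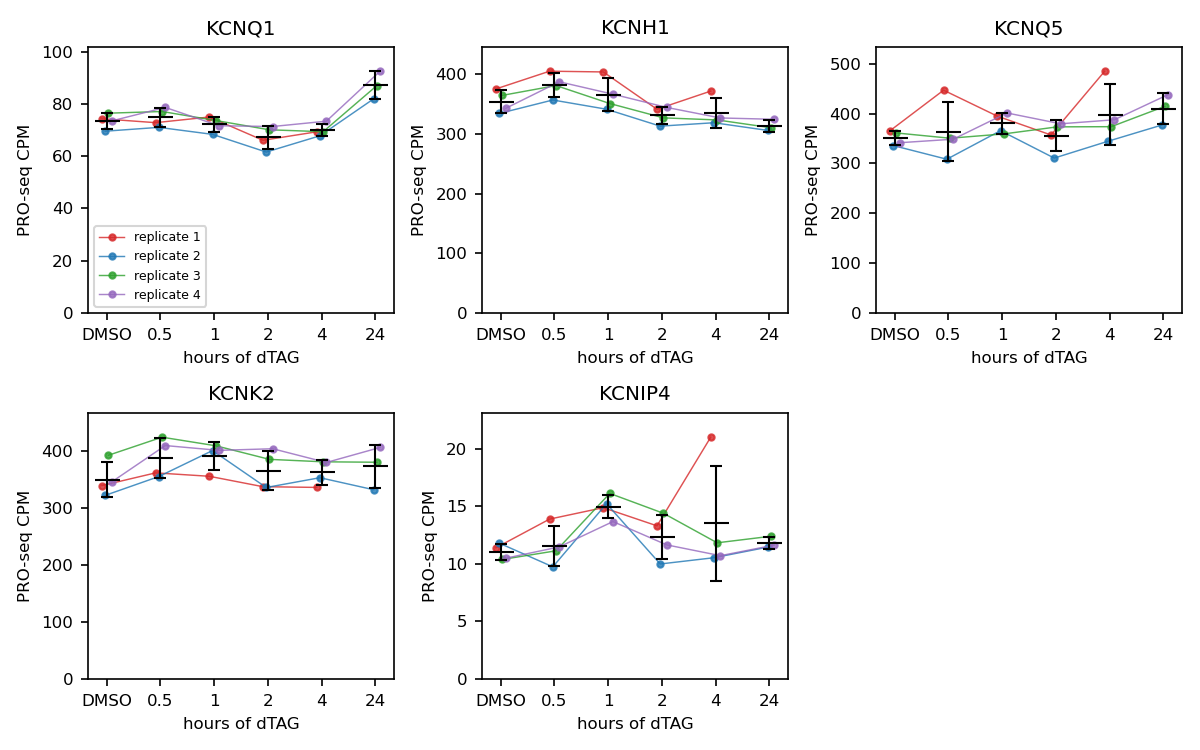
PRO-seq CPM by hours of dTAG for KCNQ1, KCNH1, KCNQ5, KCNK2 and KCNIP4, which passed the FDR of 0.1 against DMSO in at least 1 fit, with lines joining replicate numbers and black ticks and bars giving mean and SD. At 24 h all KCNQ1 libraries lie above DMSO and all KCNH1 libraries below it, and replicate 1 at 4 h (red) stands above the other libraries for KCNQ5 and KCNIP4.

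None of the 6 inward rectifiers (KCNJ3, KCNJ6, KCNJ10, KCNJ11, KCNJ14 and KCNJ15) passed in any contrast, with or without the block. Their median log2 fold changes against DMSO lay between 0.01 and 0.07, and the widest was KCNJ11, the pore of the ATP-sensitive channel, at 0.37 (SE 0.33) at 4 h. That value rested on replicate 1, at 34.5 CPM against 9.2, 9.4 and 12 CPM in the others, and turned to -0.19 (SE 0.23) without it. KCNJ11 also had the largest spread between replicates of the 36 genes, 0.472 on the log2 scale. KCNJ10, with the highest mean count of the class, gave 48.1, 56.7, 55.3 and 50.6 CPM in DMSO. At 24 h it gave 51.2, 55.4 and 53.7 CPM, within the same range. KCNJ14 ranged from 14.4 to 16.9 CPM in DMSO and from 14.2 to 16.4 CPM at 24 h. Much of both counts may be shared with same-strand genes, PIGM (468.5 against 552.6 for KCNJ10) and GRWD1 (187.7 against 163.0 for KCNJ14).

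Of the 12 auxiliary genes, KCNIP4, a calcium-binding partner of Kv4 channels, rose at 1 h with the block. It gave 11.4, 11.8, 10.4 and 10.5 CPM in DMSO and 14.9, 15.2, 16.1 and 13.7 CPM at 1 h, with no overlap. The log2 fold change was 0.45 (SE 0.16, edgeR adjusted p = 0.325) without the block and 0.47 (SE 0.13, 4 of 4 pairs, adjusted p = 0.069) with it, and without the 4 h library of replicate 1 it passed without the block too (adjusted p = 0.0617). That library gave 21.0 CPM, against 10.5 to 11.8 CPM in the other 4 h libraries, and the 4 h log2 fold change of 0.24 was 0.00 without it. KCNMB3, a beta subunit of the BK channel that KCNMA1 forms, had 45.1, 43.5, 42.8 and 35.9 CPM after 0.5 h, then 30.8, 36.1, 35.5 and 33.5 CPM at 4 h. It fell between these times with the block (-0.27, 4 of 4 pairs, edgeR adjusted p = 0.0595, against 0.122 without it) and by DESeq2 (adjusted p = 0.047). Without the 4 h library of replicate 1 the edgeR call was lost (-0.24, adjusted p = 0.131 with the block). The other BK beta subunits, KCNMB2 and KCNMB4, did not pass, and KCNMB4 had log2 fold changes below 0 at all 5 times, from -0.46 to -0.15. The most transcribed auxiliary gene per kb, KCNRG, did not pass either, with 11.8 to 14.5 CPM in DMSO and 12.1 to 14.3 CPM at 24 h.

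Counted over the 34 other genes with edgeR, 0 passed at 0.5, 1, 2 and 4 h, and 1 (2.94%) passed at 24 h. Over all 26057 genes tested the shares called were 0.476%, 1.25%, 0.733%, 0.833% and 0.863% at these times. At an unadjusted p under 0.05 there were 0, 2, 3, 0 and 3 of the 34, against 7.68%, 9.42%, 7.1%, 7.47% and 7.38% of all genes, and DESeq2 called 0, 0, 0, 0 and 2 (KCNQ1 among them), against 1%, 1.27%, 1.1%, 1.13% and 1.32%. Over the 0.5 to 4 h time course 0 passed against 1.33% of all genes (3 at an unadjusted p under 0.05, and 1, KCNH1, by DESeq2 against 2.21%). Between 0.5 and 4 h, 0 passed against 0.871% (5 at an unadjusted p under 0.05, and KCNH1 and KCNMB3 by DESeq2 against 1.48%), and between 4 and 24 h 1 passed against 0.453% (1 by DESeq2 against 0.791%). With so few members, a single gene is above the background share.

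With the replicate block more genes passed, both here and in the whole table. The counts were 1, 2, 1, 0 and 4 of 34 at 0.5, 1, 2, 4 and 24 h, against 2.48%, 3.25%, 2.43%, 2.49% and 2.65% of all genes. At 24 h the 4 genes are 11.8% of the 34, of which 2 were higher (KCNQ1 and KCNQ5, against 1.43% of all genes) and 2 lower (KCNH1 among them, against 1.22%). Between 0.5 and 4 h 4 passed with the block (3 lower, KCNH1 and KCNMB3 among them, against 1.42%, KCNH5 higher against 2.73%, and 4.15% in either direction), between 4 and 24 h 1 against 1.77%, and over the time course 2 (KCNH1 and KCNQ1) against 4.6%.

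Leaving out the 4 h library of replicate 1, with no block, edgeR called 0, 1, 0, 0 and 2 of the 34 from 0.5 to 24 h (KCNIP4 at 1 h, and KCNQ1 among those at 24 h), against 0.567%, 1.4%, 0.857%, 0.787% and 1.06% of all genes. It called 2 between 0.5 and 4 h, KCNH1 among them (0.729%), KCNQ1 between 4 and 24 h (0.37%) and 1 gene over the time course (1.26%). With the block and without that library, 1, 2, 1, 2 and 4 passed from 0.5 to 24 h against 2.94%, 3.9%, 3.04%, 2.2% and 3.06%. KCNH5, higher, was among those at 4 h. Between 0.5 and 4 h 3 passed (3.19%), between 4 and 24 h 1 (1.87%), and over the time course 5, with KCNH1, KCNH5, KCNIP4 and KCNQ1 among them (5.47%).

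Groups that did not overlap DMSO in any library were found for 2 of 34 genes at 0.5 h (KCNIP3 among them, 4.97% of all genes), 2 at 1 h (KCNAB1 and KCNIP4, 5.37%), 1 at 2 h (KCNMB4, 4.85%), 1 at 4 h (KCNIP3, 4.43%) and 5 at 24 h (KCNG1, KCNH1, KCNQ1 and KCNQ5 among them, 9.49%). The median log2 fold change of the 34 was 0.03, 0.01, -0.03, 0.02 and 0.03 from 0.5 to 24 h, against 0.01, 0.01, 0.00, 0.01 and 0.00 for all genes. Above 0 were 23, 18, 13, 18 and 21 of the 34, against 53.2%, 52.6%, 51.0%, 54.7% and 50.9% of all genes.

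**Figure D4:**
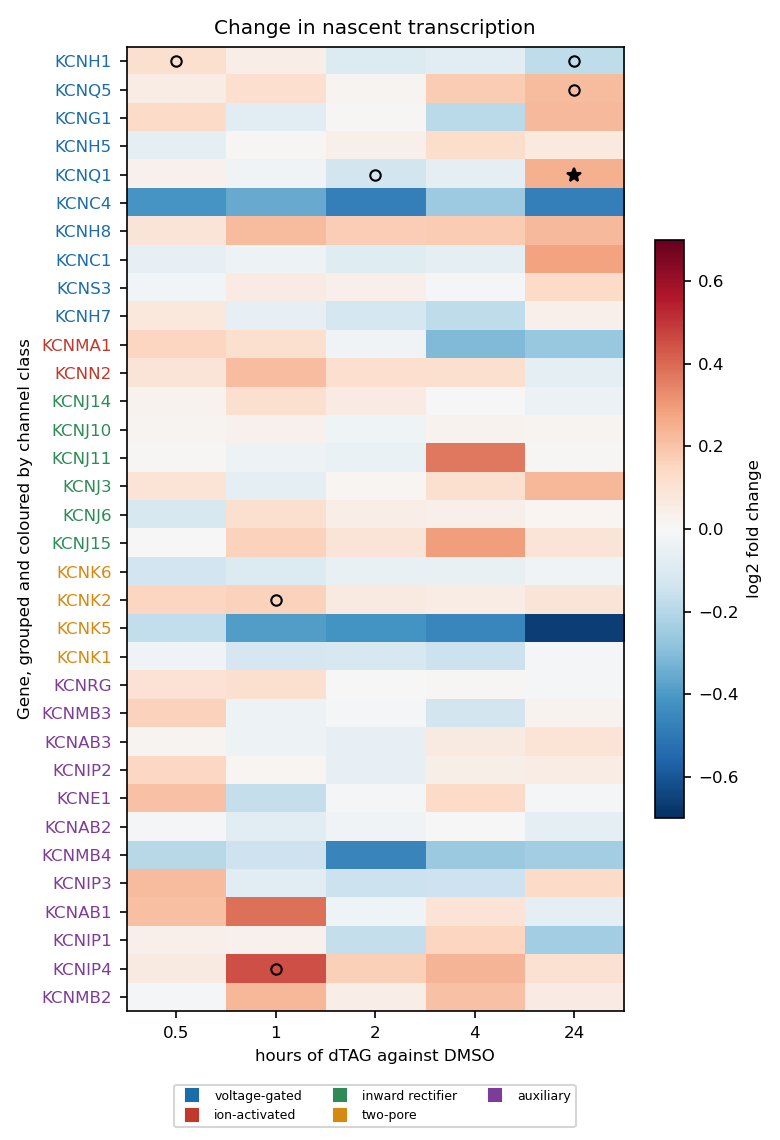
Log2 fold changes against DMSO of 34 of the 36 genes at each time of dTAG, with genes grouped and coloured by channel class and ordered by DMSO level within it. Stars mark genes past the FDR of 0.1 without the replicate block (KCNQ1 at 24 h), circles those past it with the block only, and KCNMA1 and KCNK5 carry no mark because they were not tested.

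The size of change that could be seen varied between genes. The spread between replicates of one group, on the log2 scale, had a median of 0.15 over the 36 genes, 0.08 for the 8 genes with a mean of 500 counts or more and 0.175 for the other 28. The median SE of a log2 fold change was 0.10 to 0.11 at every time. A change of the size seen for KCNMA1 at 0.5 h was therefore under 2 SEs for most members, and a gene that did not pass is not shown to be unchanged.

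Other genes of potassium handling were taken from lists of partners, pumps and cotransporters. Of 11 channel partners outside the KCN symbols, 8 were tested, and only NEDD4L, a ubiquitin ligase that removes KCNQ1 and other channels from the membrane, rose. It did so at 2 h (log2 fold change 0.30, edgeR adjusted p = 0.000838) and at 4 h (0.25, adjusted p = 0.00427), and with the block at all 5 times. This was 1 of the 8 at 2 and 4 h, beside 0.733% and 0.833% of all genes. The block gave 1 of the 8 at each time, beside 2.43% to 3.25%. Of 22 potassium pump and cotransporter genes, 17 were tested and 0 passed against DMSO without the block, beside 0.476% to 1.25% of all genes. The block gave 1 at each of 1, 2 and 4 h, beside 3.25%, 2.43% and 2.49%, and 0 at 0.5 and 24 h. With the block ATP1B3, a sodium pump subunit, fell at 1 h (-0.17, edgeR adjusted p = 0.0493), the proton pump gene ATP12A fell at 2 h (-2.21, adjusted p = 0.0246, with a mean of 16.5 counts and libraries between 0.436 and 13.0 CPM) and the cotransporter gene SLC12A4 rose at 4 h (0.15, adjusted p = 0.0992). Of 10 voltage-gated calcium channel pore genes, all tested, CACNA1H fell at 1, 2 and 4 h (-0.43, -0.35 and -0.33, edgeR adjusted p = 0.01, 0.0523 and 0.0705) and CACNA1I fell at 4 h (-0.58, adjusted p = 0.0442) and with the block also at 2 h (-0.49, adjusted p = 0.0433). The other 8 did not pass against DMSO, among them CACNA1G, at -0.51 at 4 h (adjusted p = 0.803) with a mean of 13.0 counts. Of these 10 genes, 0, 1, 1, 2 and 0 passed from 0.5 to 24 h, beside 0.476%, 1.25%, 0.733%, 0.833% and 0.863% of all genes. With the block the counts were 0, 1, 2, 2 and 0, beside 2.48%, 3.25%, 2.43%, 2.49% and 2.65%.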

How the data were processed

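PRO-seq counts of 23 libraries were analysed. Per the study's methods, the authors trimmed adapters, collapsed duplicates by a molecular identifier, removed ribosomal reads, aligned the rest and counted reads in genes. The submitters' processing notes name cutadapt 1.8.1, Bowtie2 2.4.4, SAMtools 1.9 and hg38. The deposited values are raw read counts per gene. Annotation and strand use in counting are not given in the sources used here. Symbols and spans came from GENCODE release 44 by Ensembl ID (60463 of 60605 matched).

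Counts were fitted in R 4.3.3 with edgeR 4.0.16 (filterByExpr with minimum count 10, TMM, glmQLFit, glmQLFTest, two-sided) on all 23 libraries, or on the 20 up to 4 h for the time course, with no replicate term. Benjamini-Hochberg adjusted p under 0.1 over all kept genes was called. SE is the log2 fold change over the square root of F. CPM uses TMM-scaled library sizes, and per kb means per kb of gene span. The pipeline was tested on simulated data. Replicate 1 has no 24 h library among the 23 used here.

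Same-numbered libraries share a harvest, per the study's methods. Deviations from group means correlated at 0.313 on average within a number (55 pairs of libraries) and -0.0891 between numbers (165 pairs), with means of 0.611, 0.111, 0.462 and 0.168 for replicates 1 to 4, so the numbers were taken to pair the libraries, and the fit with a replicate block is given where it changes a call. All replicates are harvests of 1 clone, and p-values measure the spread between these. No 2 libraries of a group agreed within sampling noise (chi-square per degree of freedom 1.63 to 44.8).

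Named genes were KCNMA1, KCNK5, every other member called against DMSO or over the time course in either fit, the 2 members with the highest DMSO level per kb in each class, and those next to the count floor. A few genes that this rule names are not reported here, and counts of calls include them. The members and lists were chosen with earlier results of these data known. Alternatives were other scaling, no filter, DESeq2 1.42.0, the block, the 2 groups alone, each replicate left out, FDR 0.05, and, chosen after seeing the data, leaving out the 4 h library of replicate 1.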

Additional observations from a re-analysis of the deposited data

Results flagged for a closer look

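Of 80 groups of 4 libraries tested over 16 genes, 7 held a library far from the other 3, and chance flags about 1 group in 20. The library of replicate 1 at 4 h gave 2 of them: 371.3 CPM for KCNH1 against 318.4 to 326.4 in the others and 21.0 CPM for KCNIP4 against 10.5 to 11.8. KCNJ11 and KCNC4, whose 4 h values also rested on that library, were not among the 16 genes, so this count does not cover all members. Replicate 1 at 1 h gave 19.5 CPM for KCNJ14 against 15.7 to 16.1, 355.8 CPM for KCNK2 against 400.9 to 409.3, and 17.2 CPM for KCNN2 against 14.9 to 15.0. At 0.5 h replicate 1 gave 9.51 CPM for KCNIP1 against 4.30 to 4.56, and replicate 3 gave 16.8 CPM for KCNN2 against 12.9 to 13.6.

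KCNQ1 differed between 24 and 4 h by a log2 fold change of 0.32 (edgeR adjusted p = 0.0132), with every pair below DMSO at 4 h and above it at 24 h. Every same-numbered pair of 3 further genes lay above DMSO at 0.5 h and below it at 4 h. The difference between these times was -0.19 for KCNH1 (edgeR adjusted p = 0.188) and -0.37 for KCNIP3 (edgeR adjusted p = 0.439), neither past the threshold, and -0.46 for KCNMA1, where it was not tested because the gene was chosen for its response. KCND2, a Kv4 pore subunit below the floor of 50 counts, rose at 1 h with the replicate block (log2 fold change 0.79, SE 0.195, edgeR adjusted p = 0.0323).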

How the results depend on the processing

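For KCNMA1 and KCNK5, and for the called contrasts of KCNH1, KCNH5, KCNIP4, KCNK2, KCNMB3, KCNQ1 and KCNQ5, no log2 fold change turned sign under the alternatives run. The other genes were not followed under every alternative, and KCNJ11, KCNIP1 and KCNIP2 turned sign at 4 h without the 4 h library of replicate 1. With the replicate block, the number of the 34 other genes called moved from 0 to 1 at 0.5 h, 0 to 2 at 1 h, 0 to 1 at 2 h, 1 to 4 at 24 h, 0 to 2 over 0.5 to 4 h and 0 to 4 at 4 h against 0.5 h. DESeq2 called 2 at 24 h, 1 over the time course and 2 at 4 h against 0.5 h. No low-count filter left 0 at 24 h, total counts gave 1 at 4 h against 0.5 h, and the 2 groups alone left 0 at 24 h against 4 h. Leaving out single replicates, or the 4 h library of replicate 1, gave 0 to 2 at 24 h and at 4 h against 0.5 h, 0 to 1 at 1 h, over the time course and at 24 h against 4 h, and 0 elsewhere. The block without that library gave 1, 2, 1, 2 and 4 from 0.5 to 24 h, 5 over the time course and 3 at 4 h against 0.5 h. KCNMA1 at 4 h was -0.35 with total counts, -0.35 with the block without that library and -0.35 to -0.29 without single replicates. At 24 h it was -0.30 to -0.22, at 4 h against 0.5 h -0.50 to -0.43, and at 24 h against 4 h 0.008 to 0.082 without single replicates, and 0.12 with total counts. KCNK5 moved by less than the SD of its DMSO libraries throughout, although at 0.5 h it ranged from -0.22 to -0.08 without single replicates. Counts of 50 to 500 limit most members to changes well above their SE of about 0.1.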
